A study of Caenorhabditis elegans with 16 samples.

Results

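The histone genes of Caenorhabditis elegans were followed through the small RNAs that map over them, in bins of 1 kb along the genome. Members were the bins that overlap any of the 72 genes whose names begin with his- and whose mean over the 16 libraries was at least 5 RPKM, the deposited unit, in which reads are scaled to bin length and library size. The genes overlap 77 bins of the 100257 in the table, and 73 of these reached the minimum, out of 25407 bins in all that did so and were tested. They touch 71 of the 72 genes and form 19 genomic clusters, a cluster being his- genes within 10 kb of each other. Just inside the minimum lay bins of his-70 at 5.15 RPKM, his-71 at 5.25 RPKM and his-30 at 5.81 RPKM. The 4 bins outside it were the only bin of his-69 at 4.01 RPKM, bins of his-72 at 2.97 and 0.255 RPKM, and a bin of his-71 at 0.517 RPKM.

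Core histones H2A, H2B, H3 and H4 form the nucleosome, and in C. elegans their genes lie mostly in clusters of many near-identical copies. Their mRNAs end in a stem-loop bound by CDL-1 instead of a poly(A) tail, and the Argonaute CSR-1 with its small RNAs is known to take part in their maturation. Small RNAs made against histone mRNAs by RNA-dependent RNA polymerases are known to accumulate when the piRNA Argonaute PRG-1 is lost, and the nuclear Argonaute HRDE-1 carries such small RNAs in the germline.

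Small RNAs came from young adult hermaphrodites, with 1 library for each combination of 4 backgrounds and 4 hrde-1 states. The alleles were ok1457 or red11 of set-32, a gene of the SET-domain family, n4256 of met-2 joined with n5021 of set-25, both genes of methyltransferases acting on histone H3, and none in wild type (N2). Within a background hrde-1 carried tm1200 (hrde-1 mutant), had been repaired and grown to an early generation (F8 for the ok1457 strain, F5 for the other three) or to F20, or had never been mutant. The comparisons bear on what hrde-1 loss and its repair do to small RNAs, and on whether set-32 changes the course after repair.

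Whether several cultures or repaired lines stand behind a library is not given in the sources used here, so p-values measure the spread between backgrounds or states, not between cultures. Whole animals were used, so fewer cells of a type and fewer small RNAs per cell cannot be told apart. Small RNAs over hrde-1 itself summed to 248 to 390 RPKM in hrde-1 mutants and to 280 to 711 RPKM in the other libraries. The mutant lay below the never mutant library in each background. Against the repaired libraries the ranges overlap: set-32(ok1457) had 389.8 RPKM in the mutant, 388.7 early and 280.4 at F20. The sums alone therefore do not check every label. A single read was taken to be worth the most frequent low value of a library, 1.45 to 6.3 RPKM. The histone bins of a library then summed to the value of 672 to 2301 reads (median 1354). In 5 libraries (both set-32 backgrounds when hrde-1 was mutant or never mutant, and met-2 set-25 early after repair) the table summed to 89.98 to 96.7% of a per-million total, against 67.7 to 80.5% in the other 11. Intestine markers (8 of 8 genes found, none at 0 in every library of a class) summed to 138 to 616 RPKM in those 5. In the remaining 11 they summed to 4414 to 12430 RPKM. These sums rest on vit-1 to vit-6. Over the 16 libraries ges-1 lay at 0.06 to 13.02 RPKM and elt-2 at 0.09 to 5.82 RPKM, with overlap between the classes. Oocyte and germline markers (10 of 10 found) overlapped, at 1415 to 2653 RPKM and 1417 to 2446 RPKM, as did the histone bins without the linker histone gene his-24, at 1632 to 3184 RPKM and 2025 to 4456 RPKM. Each hrde-1 mutant lay in the same class as the never mutant library of its background.

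Histone bins carried more small RNA than most of the genome. The median bin had a mean of 30.4 RPKM, against 14.1 RPKM over all tested bins, 77.4% of which lay below the histone median. The highest was the his-24 bin (X:14490001-14491000) at 798 RPKM, which alone held most of the 23.1% of histone RPKM that fell to his-24, the gene of the linker histone H1. That bin also overlaps the non-coding genes M163.16 and M163.19, whose small RNAs cannot be separated from those of his-24. Next came his-35, an H2A gene outside the large clusters that shares its bin with mdf-1, at 112.7 RPKM, and the H3 and H4 pair his-46 and his-45 at 100.2 RPKM. In the other clusters the highest bin had 89.8 RPKM over his-55 and his-56, 85.5 over his-31, 84.1 over his-60, 66.4 over his-64 and 60.3 over his-67, all bins that hold an H4 gene. The chromosome II cluster, with 13 genes the largest, peaked at 41.6 RPKM over his-12 and his-11. The highest bin was at 48.98 RPKM (his-54 with his-53), 48.4 RPKM (his-20 with his-19), 45.2 RPKM (his-4 with his-3), 29.6 RPKM (his-38) and 27.1 RPKM (his-5) in the remaining clusters of core histone genes. The genes of the replacement H3 variants lay at 56.3 RPKM for his-74, 49.3 for his-72, 17.9 for his-70 and 5.25 for his-71, and his-73, whose 138-base coding length is too short for a core histone, lay at 27.9 RPKM. These are levels per 1 kb bin, and his- genes cover only part of most bins.

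By histone type, the 10 bins with H4 genes alone averaged 52.5 RPKM, the 11 with H2A alone 36.5, the 8 with H2B alone 32.5, the 12 with H3 alone 25.5 and the 6 of H3 variants 26.5 RPKM. The remaining bins hold 2 types (22 bins) or the linker or unassigned genes. Another gene overlapped 30 of the 73 member bins.

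Small RNAs over a pair of neighbouring histone clusters on chromosome V were higher in hrde-1 mutants than in never mutant libraries. The first (V:8847393-8854053) holds his-49 to his-54 and the second (V:8889488-8898539) his-17 to his-22 with his-27 and his-28, together genes for all 4 core histones. The 4 bins that passed the test each hold an H2A and an H2B gene transcribed away from each other, and all 4 rose about equally: his-51 with his-52 (V:8850001-8851000), his-54 with his-53 (V:8853001-8854000), his-21 with his-22 (V:8892001-8893000) and his-20 with his-19 (V:8895001-8896000).

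Over his-51 and his-52 the level in set-32(ok1457) was 115 RPKM in the hrde-1 mutant and 35.6 RPKM in the never mutant. In set-32(red11) it was 79.3 RPKM in the hrde-1 mutant and 12.2 RPKM in the never mutant. In met-2 set-25 it was 49.5 RPKM in the hrde-1 mutant and 21.2 RPKM in the never mutant, and in wild type it was 72.2 RPKM in the hrde-1 mutant and 11.7 RPKM in N2. Every mutant thus lay above every never mutant library. The other 3 pair bins carried nearly the same values: the range over the 4 bins was 2.55 to 27.8% of their mean within a library, with a median of 9.08%. With the bins moved by 1 to 8 kb along the chromosome the median range was 25.4% or more. The genome build of the table is not given in the sources used here, and the levels alone do not place these clusters: the 14 bins of the 2 clusters had a median of 30.5 RPKM at the positions used and 53.8 RPKM when moved by −8 kb, and over the 500 bins around each the correlation across bins of log2 level with cover by protein-coding genes was −0.09 and −0.11. How reads that match several near-identical copies were treated is not given in the sources used here. With values this close, the 4 bins are taken as in effect 1 measurement. The mean value of such a bin equalled that of 4.81 to 35.5 reads in a library, and actual read counts are not known.

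**Figure D1:**
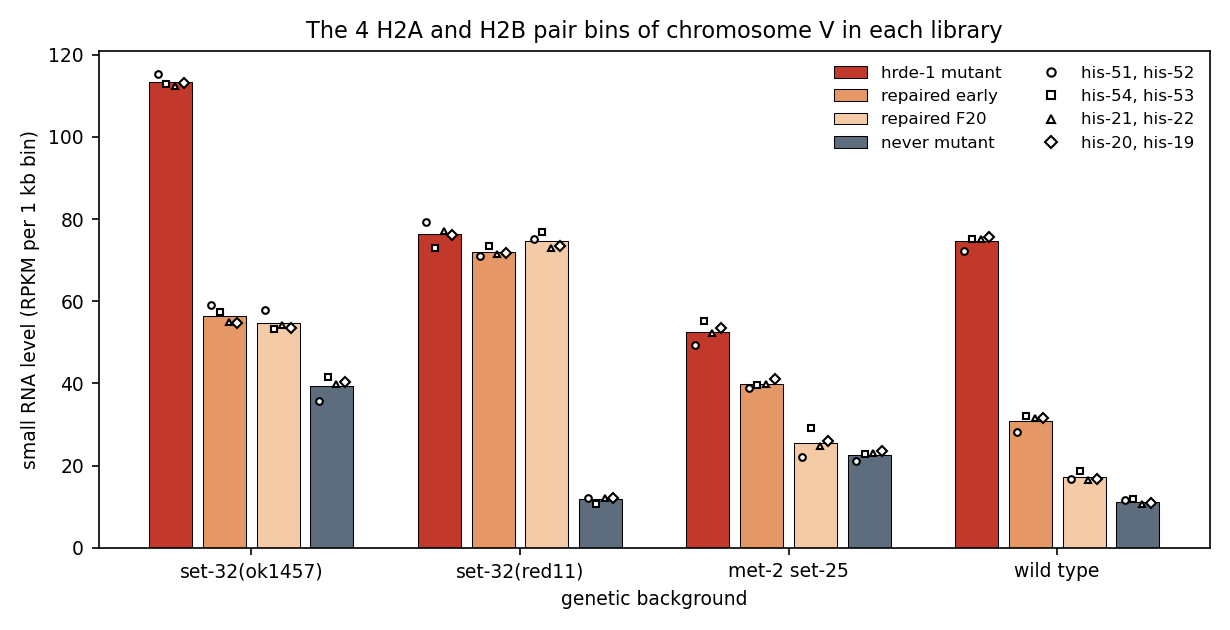
Small RNA level in RPKM (y axis) over the 4 bins that hold an H2A and an H2B gene in the chromosome V clusters, for each of the 16 libraries. Libraries are grouped by background on the x axis, bars are the mean of the 4 bins, coloured by hrde-1 state, and the open symbols are the single bins. The mutant mean was 113.4, 76.4, 52.6 and 74.6 RPKM in set-32(ok1457), set-32(red11), met-2 set-25 and wild type, against 39.3, 11.8, 22.7 and 11.3 RPKM in the never mutant libraries of these backgrounds.

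In limma, the log2 change of hrde-1 mutants over never mutants was 1.99 ± 0.33 for his-51 with his-52 (SE; adjusted p = 0.0290; higher in 4 of 4 backgrounds). It was 1.97 ± 0.34 for his-54 with his-53 (adjusted p = 0.0341), 1.98 ± 0.35 for his-21 with his-22 (adjusted p = 0.0374) and 1.97 ± 0.35 for his-20 with his-19 (adjusted p = 0.0366). The calls were 4 of 73 histone bins higher, where 0.425% of all tested bins were called higher, and 0 of 73 lower, where 0.712% of all were called lower. At an unadjusted p under 0.05 limma gave 20 histone bins higher and 1 lower, with 4.93% of all tested bins higher and 5.99% lower. The 4 calls do not survive the removal of any 1 background, which leaves 3 pairs of libraries: the count was then 0 in each case, while the change in each background alone was 1.67 in set-32(ok1457), 2.61 in set-32(red11), 1.18 in met-2 set-25 and 2.52 in wild type for his-51 with his-52. The count was likewise 0 with a pseudocount of 0.25, with all bins of the table tested, or without the background block, and 9 with a pseudocount of 4. In wild type the hrde-1 mutant and N2 carried different library-name prefixes in the labels, SG0315 and SG1116, and the part of that difference in the result was not tested. In the other 3 backgrounds both carried 1 prefix.

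All 14 bins of these 2 clusters, singled out after their values were seen, were higher in the mutant in 4 of 4 backgrounds, and in all 14 every mutant lay above every never mutant. They cannot be counted as 14 separate measurements, since many hold copies that share an Ensembl name. The name his-50 is also given to his-28, his-49 to his-27, and his-51 to his-53, his-21 and his-19. In the wild-type mutant the bin of his-50 with his-49 had 71.04 RPKM and that of his-28 had 67.15 RPKM. The log2 changes of the 14 bins ran from 1.43 to 2.25 with a median of 1.89, on the H3 and H4 genes (his-49, his-50, his-17, his-18, his-27 and his-28) as on the H2A and H2B genes. The largest of them, his-53 at its end (V:8854001-8855000), was at 2.25 ± 0.50 and missed the threshold (adjusted p = 0.0834). Summed over the 14 bins, hrde-1 mutants had 703 ± 112 RPKM and never mutants 211 ± 107 RPKM (SD, n = 4 backgrounds each). Among all histone bins, 16 of 73 had every mutant above every never mutant, where 1.76% of all tested bins did; the other 2 were his-61, an H2A gene, and his-38, an H4 gene on chromosome X. The mutant was higher in 4 of 4 backgrounds in 24 histone bins, where 9.86% of all bins were, and lower in 4 of 4 in 2 histone bins, where 9.14% of all bins were. Among the 59 histone bins outside the 2 clusters, it was higher in 4 of 4 in 10.

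The other 59 histone bins moved less and less evenly. In 50 of them the mean log2 change was positive, where 53.7% of all tested bins were positive. Their median was 0.32, where the median over all tested bins was 0.05. Limma called none of them (unadjusted p under 0.05 in 6 higher and 1 lower). Many of these bins also hold copies that share an Ensembl name, such as his-45 and his-55. They are therefore not 59 separate measurements. The direction depended on the background: the mutant was higher in 49 of 59 in wild type (median 0.98, all tested bins 0.32) and in 46 of 59 in met-2 set-25 (median 0.43, all tested bins −0.03). It was higher in 35 of 59 in set-32(red11) (median 0.15, all tested bins −0.01). In set-32(ok1457) it was higher in 22 of 59 (median −0.22, all tested bins −0.02). Of all tested bins 59.7, 48.6, 49.3 and 46.3% were higher in the mutant in these 4 backgrounds, in the order given. The difference between backgrounds was not tested. Closest to the chromosome V clusters in size was the pair his-8 and his-7, H2B and H2A genes of another chromosome V cluster, at 1.47 ± 0.35 (adjusted p = 0.108). The sum over the chromosome II cluster of 13 genes changed evenly and little. Its log2(RPKM + 1) differences were 0.25 to 0.36 in the 4 backgrounds, with a mean of 0.32. Its single bins were less even, from −0.66 (his-11) to 1.23 (his-13) in set-32(ok1457).

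**Figure D2:**
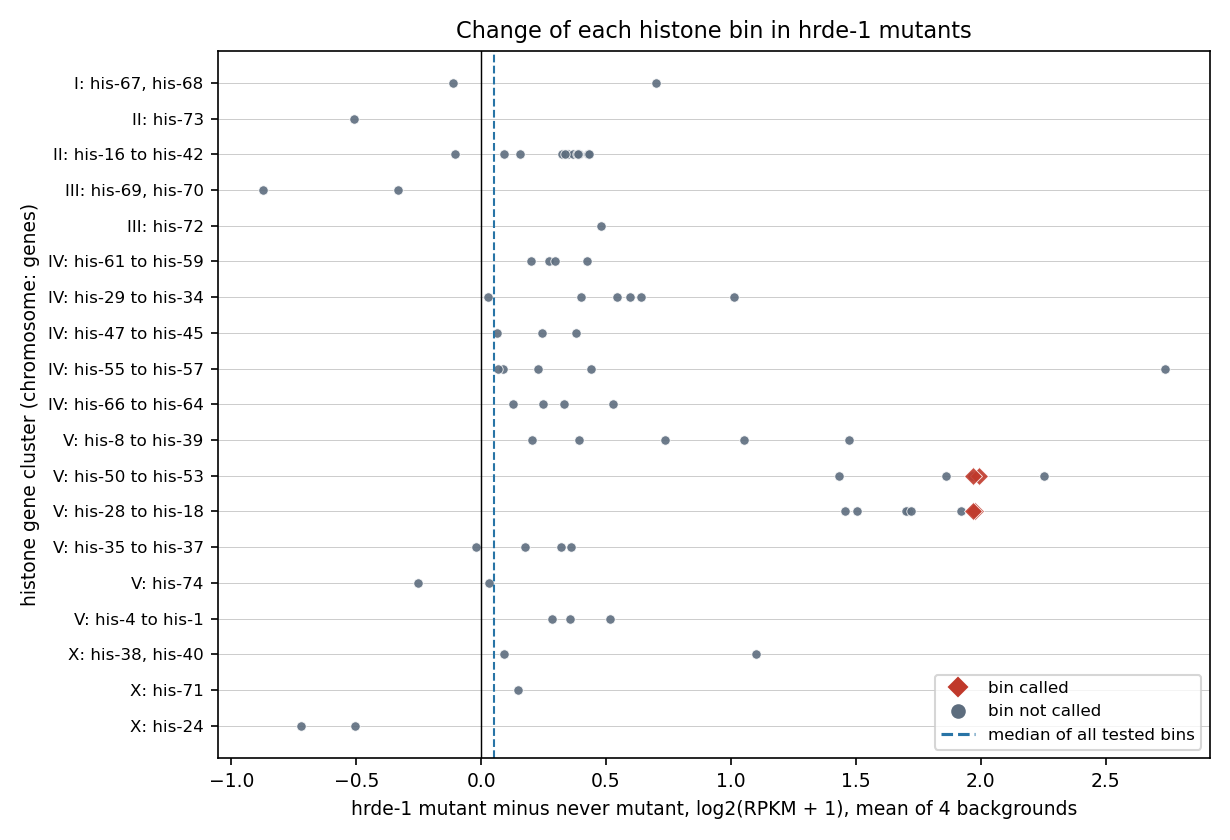
Log2 change of hrde-1 mutants over never mutants (x axis, log2(RPKM + 1), mean of 4 backgrounds) for each of the 73 histone bins, by genomic cluster (rows, chromosome and genes). Red diamonds are the 4 called bins, grey points the others, the dashed line is the median of all tested bins at 0.05. The 14 bins of 2 chromosome V clusters lie between 1.43 and 2.25, and his-24 and his-70 lie below 0.

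One bin with a larger mean change was far less regular. The end of the H2A gene his-57 (IV:11341001-11342000), in a bin shared with the kinesin gene klp-12, had 46.9, 18.3, 124 and 73.4 RPKM in the mutants of set-32(ok1457), set-32(red11), met-2 set-25 and wild type, and 11.4, 22.02, 1.86 and 4.35 RPKM in the never mutant libraries of these backgrounds. The mutant was lower in set-32(red11) and higher in the others, and the mean change of 2.74 ± 0.78 was not called (adjusted p = 0.183). The bin next to it, which holds his-58 and the rest of his-57, did not share this pattern, with 69.6, 26.96, 83.4 and 126 RPKM in the mutants and 81.5, 19.5, 66.2 and 54.01 RPKM in the never mutants in the same order.

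The linker histone gene his-24 had the opposite sign. Its main bin had 673, 399, 530 and 503 RPKM in the mutants of set-32(ok1457), set-32(red11), met-2 set-25 and wild type, against 1219, 1100, 569 and 692 RPKM in the never mutants. The mutant was lower in 4 of 4 backgrounds, but met-2 set-25 differed little and the ranges overlap, and the log2 change of −0.72 ± 0.24 was not called (adjusted p = 0.277). The most negative mean belonged to the end bin of his-70, a replacement H3 gene, at −0.87 ± 0.56 (adjusted p = 0.652), a bin of 1.03 to 10.4 RPKM over the 16 libraries. The other bin of his-70 had 91.7 RPKM in N2 and 2.93 to 25.9 RPKM in the other 15 libraries. The short gene his-73 was at −0.51 ± 0.40 (adjusted p = 0.727).

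By type, the mean log2(RPKM + 1) difference between mutants and never mutants was 0.73 ± 0.37 for bins of H2A genes alone (SD over 4 backgrounds), 0.59 ± 0.42 for H4, 0.58 ± 0.45 for H3 and 0.20 ± 0.63 for H2B. It was −0.06 ± 0.13 for the replacement H3 variants and −0.72 ± 0.58 for the linker histone H1. These averages carry no test of their own. Summed over all 73 bins, histones reached 3862, 2741, 4188 and 4971 RPKM in the mutants of set-32(ok1457), set-32(red11), met-2 set-25 and wild type, and 4187, 2744, 3043 and 2801 RPKM in the never mutants. The mean difference was 0.29 ± 0.44 on the log2 scale (SD, n = 4 backgrounds), at −0.12 in set-32(ok1457), −0.00 in set-32(red11), 0.46 in met-2 set-25 and 0.83 in wild type. These values rest on his-24: without it the differences were 0.10, 0.52, 0.57 and 1.08 in the same order, with a mean of 0.57 ± 0.40, so that the sum was higher in the mutant in 4 of 4 backgrounds. Over the bins of core histone genes the mean was 0.63 ± 0.43. Over bins in which his- genes cover at least 500 bases it was 0.10 ± 0.51, and it was 0.13 ± 0.49 with bins weighted by covered share.

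**Figure D3:**
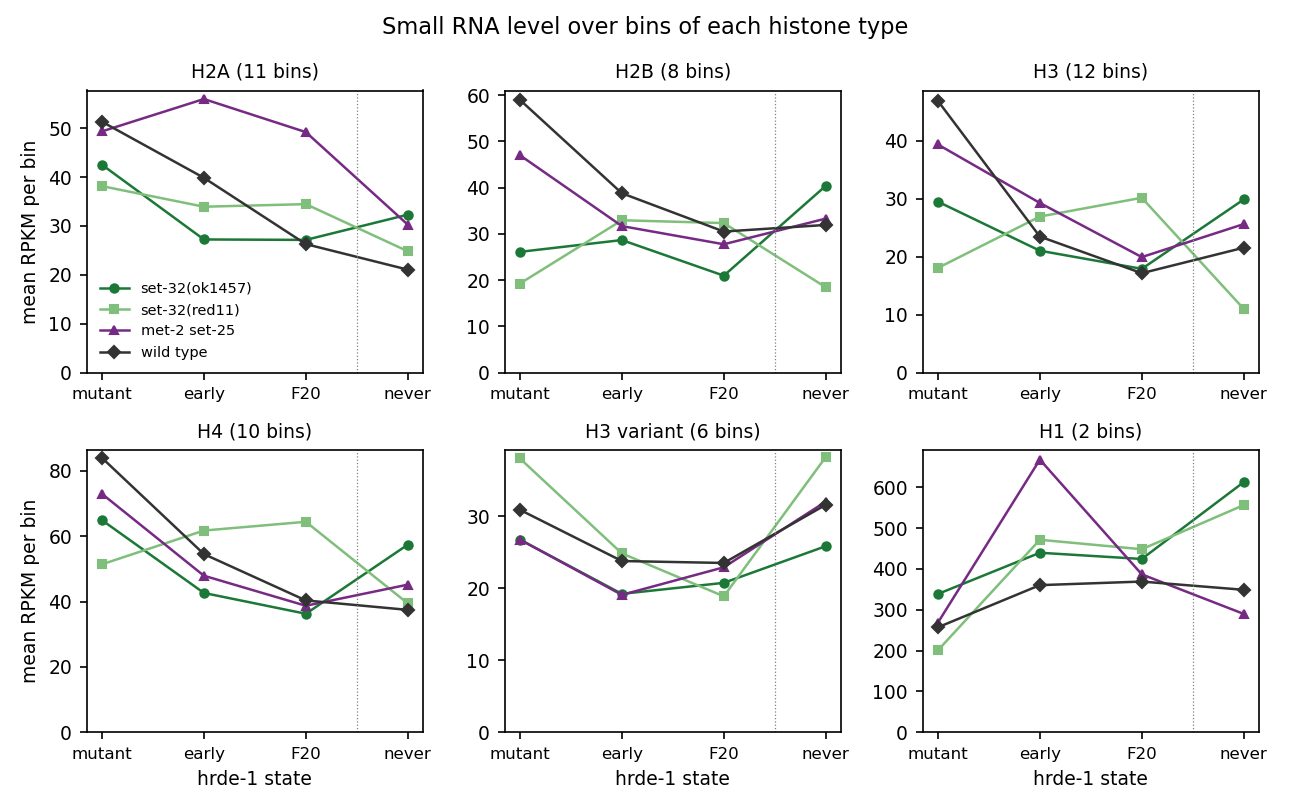
Mean RPKM per bin (y axis, each panel from 0) over bins that hold 1 histone type, by hrde-1 state (x axis: mutant, early and F20 after repair, never mutant to the right of the dotted line) and background (lines). H2A, H3 and H4 bins were at or near their highest in the wild-type mutant, at 51.3, 46.9 and 84.0 RPKM, while the linker histone H1 was lower in that mutant, at 257 RPKM, than in the other wild-type libraries, at 349 to 369 RPKM.

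Gene groups around the histones gave no call. Of all tested bins 0.425% were called higher and 0.712% lower, so 0 calls in lists of 4 to 46 bins do not set these genes apart. The mean change was positive in 53.7% of all tested bins. At an unadjusted p under 0.05 the shares of all tested bins were 4.93% higher and 5.99% lower. Of 14 tested bins of other linker and variant histone genes (hil-1 to hil-7, htz-1, hcp-3 and cpar-1) limma called 0 in hrde-1 mutants against never mutants, with 9 positive, a median log2 change of 0.08, and an unadjusted p under 0.05 in 2 higher and 2 lower. Of 26 bins of histone chaperone and assembly genes, such as unc-85 and chaf-1, 0 were called (unadjusted p under 0.05 in 2 higher and 0 lower), 19 were positive and the median was 0.35. The small RNA and mRNA end factors (8 of 10 names matched) include csr-1, ego-1, cdl-1 and hrde-1 itself. Of their 42 bins 0 were called (unadjusted p under 0.05 in 4 higher and 5 lower), 19 were positive and the median was −0.03. Oocyte and germline markers had 32 of 41 bins positive with a median of 0.25, and sperm genes 41 of 46 with a median of 0.31, both with 0 called (unadjusted p under 0.05 in 2 and 1 higher and 0 lower). The sum over sperm genes differed in direction between backgrounds. From never mutant to mutant it went from 2041 to 1354 RPKM in wild type and from 993 to 736 RPKM in met-2 set-25. It went from 222 to 716 RPKM in set-32(ok1457) and from 785 to 1288 RPKM in set-32(red11). Intestine, muscle and hypodermis markers had 0 called bins too, with medians of 0.13, −0.26 and −0.15 over 36, 16 and 4 bins. In limma an unadjusted p under 0.05 was found in 6, 0 and 0 higher and in 0, 2 and 0 lower. All 36 intestine bins are of vit-1 to vit-6, since ges-1 and elt-2 had no tested bin. The medians of these germline lists lie near the 0.38 of the histone bins and below the 1.89 of the chromosome V clusters, and their part in the histone change was not tested.

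After repair of hrde-1 the chromosome V pair bins differed between backgrounds. In wild type their mean was 74.6 RPKM in the mutant, 30.9 RPKM at F5, 17.2 RPKM at F20 and 11.3 RPKM in N2. In met-2 set-25 it was 52.6 RPKM in the mutant, 39.9 RPKM at F5, 25.5 RPKM at F20 and 22.7 RPKM in the never mutant. In both series each library lay below the one before it, with 1 library behind each step. The mutant carried the library-name prefix SG0315 and the repaired libraries SG0717 in both, while the never mutant was SG1116 in wild type and SG0315 in met-2 set-25, so repair and prefix cannot be told apart there; all set-32 libraries were SG0717. In set-32(ok1457) the mean was 113.4 RPKM in the mutant, 56.5 RPKM at F8, 54.7 RPKM at F20 and 39.3 RPKM in the never mutant. In set-32(red11) it was 76.4 RPKM in the mutant, 71.96 RPKM at F5, 74.6 RPKM at F20 and 11.8 RPKM in the never mutant. The mutant and the repaired libraries thus lay together there. High levels after repair in set-32(red11) were not particular to these bins: at F20 64 of 73 histone bins exceeded the never mutant (28.9% of all tested bins). The his-45 to his-48 cluster there had 94.96 RPKM in the mutant, 195.3 at F5, 213.6 at F20 and 97.81 in the never mutant. In both set-32 backgrounds the repaired libraries and their mutant and never mutant counterparts lie in different classes of table total. With the class as a term in the fit, the histone median was −0.31 in place of −0.20 for early repaired libraries against mutants. For F20 against mutants it was −1.01 in place of −0.46, with 0 bins called in both. At F20 the class changes with repair in both set-32 backgrounds and in neither of the others. The term thus leaves the F20 change to wild type and met-2 set-25, whose pairs alone gave the same −1.01.

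**Figure D4:**
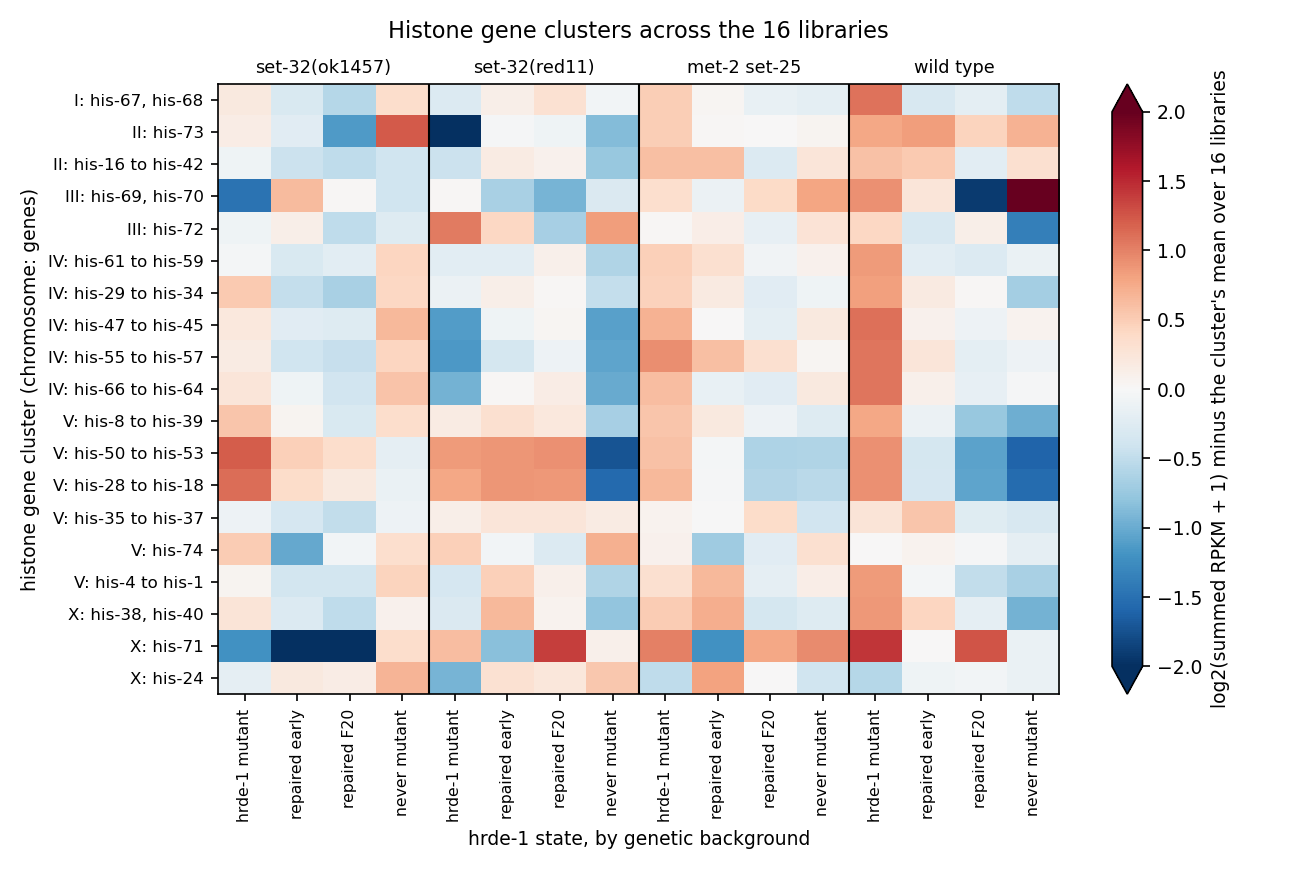
Summed small RNA level of each histone cluster (rows) in each library (columns, by background and hrde-1 state), as log2(RPKM + 1) minus the cluster's own mean over the 16 libraries; red is above and blue below that mean. The rows of the his-50 to his-53 and his-28 to his-18 clusters are red in all 4 mutants, stay red after repair in set-32(red11), and are bluest in the never mutants of set-32(red11) and wild type, where they summed to 48.4 and 52.6 RPKM for the his-50 to his-53 cluster.

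None of these steps was called over the 4 backgrounds. Early repaired libraries against hrde-1 mutants gave 0 of 73 histone bins in limma (0.0433% of all tested bins; unadjusted p under 0.05 in 0 higher and 1 lower), with a histone median of −0.20 and an overall median of −0.21. The early library was higher than the mutant in 15 of 73 bins in set-32(ok1457), 56 in set-32(red11), 21 in met-2 set-25 and 13 in wild type, and the histone median was −0.49 without set-32(red11) and −0.12 without wild type. F20 repaired libraries against mutants gave 0 of 73 (0.134% of all). In limma an unadjusted p under 0.05 was found in 1 higher and 13 lower, and in 2.77% and 7.45% of all bins. Of the 73 bins 68 were negative and 5 positive, where 37.3% of all tested bins were positive. The histone median was −0.46 and that of all tested bins −0.21. The F20 library was higher than the mutant in 12 of 73 bins in set-32(ok1457) (median −0.63) and 54 in set-32(red11) (median 0.45). It was higher in 10 in met-2 set-25 (median −0.74) and 2 in wild type (median −1.19). Of all tested bins 37.1, 34.1, 48.7 and 47.4% were, in the same order, with medians of −0.34, −0.40, −0.01 and −0.06. Without set-32(red11) the histone median in this comparison was −0.80. The bin of his-51 with his-52 was at −1.06 ± 0.36 (adjusted p = 0.444). The 2 chromosome V clusters were singled out on the same mutant and never mutant libraries that enter the comparisons with repaired libraries, so their sign there is given as a description only. Histone bins were lower in 4 of 4 backgrounds at F20 in 14 cases, where 14.9% of all bins were, and higher in 4 of 4 in 1 case, where 5.18% of all were. The one that was higher, and the largest positive change at both times, was his-24 at 0.86 ± 0.41 early (adjusted p = 0.643) and 0.64 ± 0.27 at F20 (adjusted p = 0.488). Its main bin had 876, 929, 1335 and 715 RPKM early and 845, 885, 768 and 733 RPKM at F20 in set-32(ok1457), set-32(red11), met-2 set-25 and wild type. The largest fall in size early was that of his-71, a replacement H3 gene, at −1.54 ± 0.80 (adjusted p = 0.656), a bin listed at 0 to 11.85 RPKM over the 16 libraries, and his-74 was at −0.98 ± 0.40 (adjusted p = 0.625).

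Against never mutants, early repaired libraries gave 0 of 73 called (0.0% of all tested bins; unadjusted p under 0.05 in 10 higher and 0 lower, and in 0.807% and 2.76% of all bins). The histone median was 0.31 and the overall median −0.17. The early library was higher than the never mutant in 24 of 73 bins in set-32(ok1457) (median −0.44) and 64 in set-32(red11) (median 1.01). It was higher in 45 in met-2 set-25 (median 0.18) and 53 in wild type (median 0.46). Of all tested bins 38.5, 33.5, 45.1 and 57.1% were, in the same order, with medians of −0.37, −0.27, −0.16 and 0.24. The histone median was 0.12 without set-32(red11) and 0.58 without set-32(ok1457). The 2 chromosome V clusters had a median of 1.27, with the end bin of his-53 at 1.88 ± 0.58 and that of his-19 at 1.54 ± 0.55 (adjusted p = 0.9998 for both). F20 repaired libraries against never mutants gave 0 of 73 (0.0% of all; unadjusted p under 0.05 in 0 and 0), a histone median of 0.02 and an overall median of −0.17. Without set-32(red11) the histone median was −0.24. Here the F20 library was higher in 20 of 73 bins in set-32(ok1457) (median −0.57) and 64 in set-32(red11) (median 0.96). It was higher in 24 in met-2 set-25 (median −0.19) and 38 in wild type (median 0.01). Of all tested bins 35.8, 28.9, 46.2 and 58.3% were, in the same order, with medians of −0.40, −0.46, −0.06 and 0.23. The median of the 14 bins of the 2 clusters was 0.91. F20 against early repaired libraries gave 0 of 73 in limma (0.0% of all), with an unadjusted p under 0.05 in 0 higher and 1 lower. In this comparison 60 of 73 bins were negative and 13 positive, where 49.7% of all tested bins were positive. The histone median was −0.25.

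Set side by side after repair, the set-32 libraries lay above those with SET-32 over the chromosome V pairs. Over his-51 and his-52 the 4 repaired set-32 libraries had 57.8 to 75.2 RPKM (58.99 and 57.8 in ok1457, 70.95 and 75.2 in red11, early and F20), and the 4 repaired libraries of met-2 set-25 and wild type had 16.8 to 38.95 RPKM. This comparison was added after the values were seen. The never mutant libraries had 35.6 RPKM in ok1457, 12.2 in red11, 21.2 in met-2 set-25 and 11.7 in N2 over the same bin. The ok1457 strain that had never been mutant for hrde-1 thus already lay near the top of the range of the repaired libraries with SET-32. In 9 histone bins every repaired set-32 library lay above every repaired library with SET-32, where 3.06% of all tested bins did. Of the 9, 8 belong to the 2 chromosome V clusters, where copies under shared names keep them from being separate measurements. The ninth was his-8 with his-7. The reverse held in 3 histone bins (his-73, his-34 and the end of his-57), where 4.26% of all bins did so.

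Limma with the time after repair as a block called 0 of 73 histone bins in this comparison (0.61% of all tested bins; unadjusted p under 0.05 in 14 higher and 2 lower, and in 4.35% and 6.36% of all bins). The fit had no term for background, so the early and F20 libraries of a background counted as separate values. Its SE and p-values therefore do not measure the spread between strains alone. The log2 difference for his-51 with his-52 was 1.33 ± 0.29 (adjusted p = 0.0869), and all 14 bins of the 2 clusters were positive, with a median of 1.15 against −0.15 for the other 59. The end of his-57 was at −3.46 ± 0.66 (adjusted p = 0.0518), with 2.06 to 13.7 RPKM in the repaired set-32 libraries and 24.4 to 170 RPKM in the repaired libraries of met-2 set-25 and wild type. The intestine bins, all of vit-1 to vit-6, were positive in this comparison in 36 of 36 cases (median 1.29). Muscle markers were positive in 14 of 16 bins (median 0.95) and hypodermis markers in 4 of 4 (median 1.56). Oocyte and germline markers were positive in 28 of 41 (median 0.09). The part of these markers in the histone difference was not tested. All of these 8 libraries but the early met-2 set-25 library lie in 1 class of table total, and without it the count was again 0. Whether set-32 changes the F20 against never mutant difference was tested with an interaction term, also added later: 0 of 73 histone bins passed (0.531% of all; unadjusted p under 0.05 in 5 higher and 2 lower, and in 4.05% and 11.2% of all bins). The interaction was 1.34 ± 0.70 for his-51 with his-52 (adjusted p = 0.378), with a histone median of 0.34 and an overall median of −0.59. In the same fit 29 of 36 intestine bins, all of vit-1 to vit-6, were called higher (median 5.81). So were 5 of 16 muscle bins (median 5.23) and 1 of 4 hypodermis bins (median 6.15). Of the sperm bins 46 of 46 were positive (median 1.68). The part of these markers in the interaction over histones was not tested. In both set-32 backgrounds the never mutant and F20 libraries lie in different classes of table total. In met-2 set-25 and wild type they lie in the same class. An effect of set-32 and one of class therefore cannot be told apart in this term.

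Across all 4 states no histone bin was called for either kind of mutant background. These fits took the 4 states of a background as separate values, so their p-values do not measure a spread between strains alone. Both set-32 alleles against the wild-type background gave 0 of 73 (0.0% of all tested bins; unadjusted p under 0.05 in 4 higher and 4 lower, and in 8.78% and 2.97% of all bins). The histone median was −0.25 where the overall median was 0.17, but it was 0.02 without the hrde-1 mutant state, with 39 of 73 bins positive in place of 26. The 4 higher bins were the chromosome V pair bins, led by his-51 with his-52 at 1.07 ± 0.33 (adjusted p = 0.272), and among the lower ones was his-16, an H2A gene of the chromosome II cluster, at −0.91 ± 0.36 (adjusted p = 0.347). The met-2 set-25 background against wild type gave 0 of 73 (0.287% of all; unadjusted p under 0.05 in 1 higher and 1 lower), a histone median of 0.07 and an overall median of 0.11. Its extremes were his-61 at 0.91 ± 0.34 (adjusted p = 0.344) and his-41, an H2B gene beside his-35, at −1.25 ± 0.38 (adjusted p = 0.237). With values centred on each library's median, 28 of 73 histone bins were positive in met-2 set-25 in place of 44, and the median was −0.13.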

How the data were processed

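The authors deposited 1 table of RPKM per 1 kb bin; the libraries were cloned without need of a 5' monophosphate, per the labels' protocols, and the submitters' processing notes name Bowtie 0.12.7. Genome build, per-million base and treatment of multiply matching reads: not given in the sources used here. Values below that of 1 read made up 22.04 to 48.98% of nonzero values, so read counts were not recovered; strands and read lengths are not separated. Groups came from sample titles, and 27 columns of unlabelled libraries were not used.

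Bins were matched to WBcel235 gene positions, with 72 of 72 copies named by RefSeq symbols, since Ensembl gives them 50 names. Histone types are textbook assignments. Members and lists were chosen with earlier results of these data known. The deposited RPKM values were analysed as log2(RPKM + 1), which understates changes of low bins, in limma 3.58.1 (R 4.3.3; lmFit, eBayes with trend; tested on simulated data), with background or state as a block. Bins with a two-sided Benjamini-Hochberg adjusted p under 0.05 over all 25407 tested were called. Sums use log2(sum + 1). Planned were 8 comparisons, and 2 were added after seeing the data. Named were called bins, the highest bin of each cluster, single his- genes, and bins with the largest changes (up to 5 each way). Alternatives were other pseudocounts, no filter, centring, no block, and left-out backgrounds, states or libraries.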

Additional observations from a re-analysis of the deposited data

Results flagged for a closer look

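The difference between hrde-1 mutants and never mutants had one sign in both set-32 backgrounds and the other sign in met-2 set-25 and wild type for the sum over all histone bins and for 4 clusters. In set-32(red11) the sum was nearly level, at 2741 RPKM in the mutant and 2744 RPKM in the never mutant. So was the his-45 to his-48 cluster there, at 94.96 and 97.81 RPKM. A single read was worth 2.62 and 2.45 RPKM in these libraries, so the signs of both carry little weight. No difference given here was tested, and each background gives 1 pair of libraries. Values below are log2(sum + 1) differences, and a gap is the set-32 mean minus the mean of met-2 set-25 and wild type. For all member bins the difference was −0.12 in set-32(ok1457), −0.00 in set-32(red11), 0.46 in met-2 set-25 and 0.83 in wild type, a gap of −0.70. Without his-24 it was 0.10, 0.52, 0.57 and 1.08, positive in all 4 backgrounds, so the split of the sum rests on his-24. For the his-67 and his-68 cluster it was −0.16, −0.23, 0.69 and 1.59 in the same order, a gap of −1.33. For his-73 it was −1.09, −1.48, 0.45 and 0.07, a gap of −1.54. For the his-45 to his-48 cluster it was −0.45, −0.04, 0.50 and 1.04, a gap of −1.02. For the his-55 to his-58 cluster it was −0.26, −0.11, 0.89 and 1.17, a gap of −1.22. The 4 set-32 libraries compared here all belong to the class with the higher table total and the lower sums over vit-1 to vit-6. The 4 of met-2 set-25 and wild type belong to the other, so background and class cannot be told apart. The chromosome V clusters of his-49 to his-54 and his-17 to his-28 were higher in the mutant on both sides.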

How the results depend on the processing

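The 4 histone bins higher in hrde-1 mutants were 0 with a pseudocount of 0.25, 0 with no filter on low bins, 0 without the background block (no replicate block), 0 with the set-32 pairs alone and 1 with the wild-type and met-2 set-25 pairs alone, and were 9 with a pseudocount of 4. Leaving out each background in turn gave 0 in all 4 cases. Centring on library medians left 4. In repaired set-32 against repaired SET-32-positive libraries, 1 histone bin was called lower in place of 0 with a pseudocount of 4, with centring, or without wild type (range 0 to 1 over the left-out backgrounds). The cause of these shifts was not tested beyond the smaller number of libraries or larger number of bins each setting has by construction. In 181 further combinations of result and alternative the number of called histone bins, or for the summed level its value within 1 SD, did not change. The sign of the histone median did change in some: for F20 repaired against never mutants it was −0.24 without set-32(red11) and −0.08 with a term for the class of table total or with the wild-type and met-2 set-25 pairs alone, in place of 0.02. For set-32 against wild type it was 0.02 without the hrde-1 mutant state in place of −0.25. For met-2 set-25 against wild type it was −0.13 with centring and −0.02 without the never mutant state in place of 0.07. For repaired set-32 against repaired SET-32-positive libraries it was 0.15 without set-32(ok1457) in place of −0.07. The class of table total could not be added to the mutant against never mutant fit, as it is fixed within a background. Depth limits low bins: 3 reads were worth 4.35 to 18.9 RPKM.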
